A study of Paralichthys olivaceus with 6 samples.

Results

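Lipoprotein and cholesterol genes were described here in the gonads of sterile and fertile double haploid (DH) Japanese flounder, *Paralichthys olivaceus*. The members are 5 of the 52474 unigenes (assembled transcripts) in the deposited count table. They are *lpl* (Contig5082), *apoeb* (Contig23913), *apoc2* (Contig18042) and a pair of unigenes matched to *Abca1*, Contig28267 and Contig28268. They were taken by symbol from the study's own list of differentially expressed unigenes, which was drawn up by fold change and significance between these same 6 fish. The difference between sterile and fertile gonads is therefore what chose them, and it is given below as a description, with no test read from it. Gene symbols are the study's matches to zebrafish, mouse and human transcripts.

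The study sequenced gonad RNA from 3 sterile and 3 fertile DH females, all 5 years old and all produced from a single wild female. A DH fish carries a single set of chromosomes that was duplicated, so it is homozygous throughout, and this holds for the fertile fish as well as for the sterile ones. The sterile fish had never yielded eggs and are labelled as ovarian stage III, whereas the fertile fish gave viable offspring and are labelled as stage V, so fertility and ovarian stage cannot be told apart in this design. Each library was taken as 1 fish, although the library protocol also speaks of pooled RNA samples.

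The counts of 3 sterile libraries (S1, S4 and S5) and 3 fertile libraries (F1, F2 and F3) summed to between 25024469 and 35719683 per library. The numbers 4 and 5 are carried by no sample title, and S4 and S5 were placed in the sterile group by their letter. Ordered by total count, the 6 libraries run as the study's clean reads do. S4 takes the place of the study's sterile sample S2, and S5 that of its S3. Their column names also share an ending that differs from the one shared by S1 and the fertile libraries. Values are therefore also given for S1 alone. In gonads, as in any bulk tissue, fewer cells of a type and less RNA per cell cannot be told apart. Transcripts of *fshr* and *nr5a1b*, which mark the somatic cells of the gonad, and of the meiotic genes *spo11* and *sycp3* were counted in all 6 libraries. The meiotic genes were sparse. *spo11* had 3, 6 and 1 counts in S1, S4 and S5, against 10, 14 and 12 in F1, F2 and F3. *sycp3* had 3, 4 and 7 counts in S1, S4 and S5, against 12, 18 and 10 in F1, F2 and F3.

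Lipids travel in blood as lipoprotein particles, and lipoprotein lipase, encoded by *lpl*, splits the triglycerides of these particles at the vessel wall. Apolipoprotein C-II is its activating cofactor, apolipoprotein E binds the particles to receptors that take them up, and the ATP-binding cassette transporter Abca1 moves cholesterol out of cells onto apolipoproteins. In egg-laying vertebrates, lipoproteins made by the liver supply lipid to the growing oocytes.

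In the sterile gonads the lipase had lower counts, and both apolipoproteins and both *Abca1* unigenes had higher counts, than in the fertile gonads. Groups did not overlap for 5 of the 5 members, 4 of them higher and 1 lower in sterile gonads. Over all 35787 unigenes that passed the low-count filter, 21.9% had groups that did not overlap, and since the members were chosen by this contrast nothing is read from their count. Non-overlapping groups with sterile fish higher made up 11.2% of the tested unigenes and with sterile fish lower 10.7%. The log2 fold change was larger than 1 in size for 5 of the 5 members, against 3.45% of all tested unigenes. A unigene was called in edgeR's quasi-likelihood test where its adjusted *p* was below 0.05 and its levels differed more than 2-fold, and 1 of the 5 members met this, *lpl*, lower in sterile gonads. As this is the contrast the members were chosen by, the call is a description and is no support for them. The same calls took in 49 unigenes, 0.137% of all tested, of which 29 were lower in sterile gonads (0.081%) and 20 were higher (0.0559%). The call of *lpl* was lost when F2, S1 or S4 was left out, with log2 fold changes of −1.88, −2.24 and −1.90, and also in limma-voom. *apoc2* met the call when S1 was left out, with a log2 fold change of 4.85, where 53 of 37586 tested unigenes were called. *apoeb* met it without the low-count filter, where 79 of 51881 were called. It also met it when F1 was left out, where 97 of 37468 were called. DESeq2 called *lpl*, *apoeb*, *apoc2* and Contig28267, among 299 of all 35787 tested unigenes. These calls too are descriptions only.

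Levels are given as CPM, counts scaled to a common library size, after TMM normalization, which sets each library by the bulk of its shared genes. Unigene lengths were not used here, so levels of different genes are not compared with each other. The median log2 fold change over all tested unigenes was 0.01.

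The lipase *lpl* was counted 45 times in S1, 35 times in S4 and 61 times in S5, against 145 times in F1, 277 times in F2 and 189 times in F3. As CPM this was 1.78, 1.02 and 1.98 in S1, S4 and S5, against 5.38, 9.38 and 6.29 in F1, F2 and F3. All sterile fish were below every fertile fish, with a factor of 2.72 between S5, the highest sterile fish, and F1, the lowest fertile fish.

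The mean *lpl* level was 1.59 ± 0.505 CPM in sterile gonads and 7.02 ± 2.10 CPM in fertile gonads (SD, n = 3 each). The fitted log2 fold change, sterile over fertile, was −2.15 (SE 0.29), and the mean level was 4.41-fold higher in fertile than in sterile gonads. Ordered by log2 fold change, *lpl* was number 73 of the 35787 tested unigenes counted from the most negative end. S1 alone gave −1.98, so the size of the difference did not rest on S4 and S5.

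*apoeb*, one of the zebrafish genes for apolipoprotein E, was counted 14886 times in S1, 37443 times in S4 and 59596 times in S5, against 5499 times in F1, 1787 times in F2 and 3778 times in F3. Its level was 588, 1093 and 1934 CPM in S1, S4 and S5, against 204, 60.5 and 126 CPM in F1, F2 and F3. Every sterile fish was above every fertile fish, with a factor of 2.89 between S1 and F1, and the fish within each group differed widely, S5 being 3.29-fold above S1.

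The mean *apoeb* level was 1205 ± 680 CPM in sterile gonads and 130 ± 71.8 CPM in fertile gonads (SD, n = 3 each), a 9.26-fold difference. The fitted log2 fold change was 3.21 (SE 0.51), number 8 of 35787 from the most positive end. *apoeb* alone made up 0.0595% to 0.176% of all counts in the sterile libraries, against 0.00615% to 0.0213% in the fertile libraries. With S1 as the sole sterile fish the log2 fold change was 2.18, still positive but smaller, since S1 was the lowest of the sterile fish.

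*apoc2*, which encodes the cofactor of the lipase, was sparsely counted. Its counts were 29 in S1, 173 in S4 and 206 in S5, against 12 in F1, 1 in F2 and 4 in F3. Its level was 1.15, 5.05 and 6.68 CPM in S1, S4 and S5, against 0.445, 0.0339 and 0.133 CPM in F1, F2 and F3. S4 and S5 were high, S5 being 5.83-fold above S1, and S1 lay nearer to F1 than to its own group mean.

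The mean *apoc2* level was 4.29 ± 2.85 CPM in sterile gonads and 0.204 ± 0.214 CPM in fertile gonads (SD, n = 3 each), a 21.0-fold difference. The fitted log2 fold change was 4.42 (SE 0.78), number 3 of 35787 from the most positive end. The groups were separated by a factor of 2.58 between S1 and F1, but their 95% Poisson intervals, which cover counting error only, just overlapped at 0.768 to 1.65 CPM in S1 and 0.230 to 0.777 CPM in F1. The log2 fold change was 2.50 with S1 as the sole sterile fish and 5.62 without F1.

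**Figure D1:**
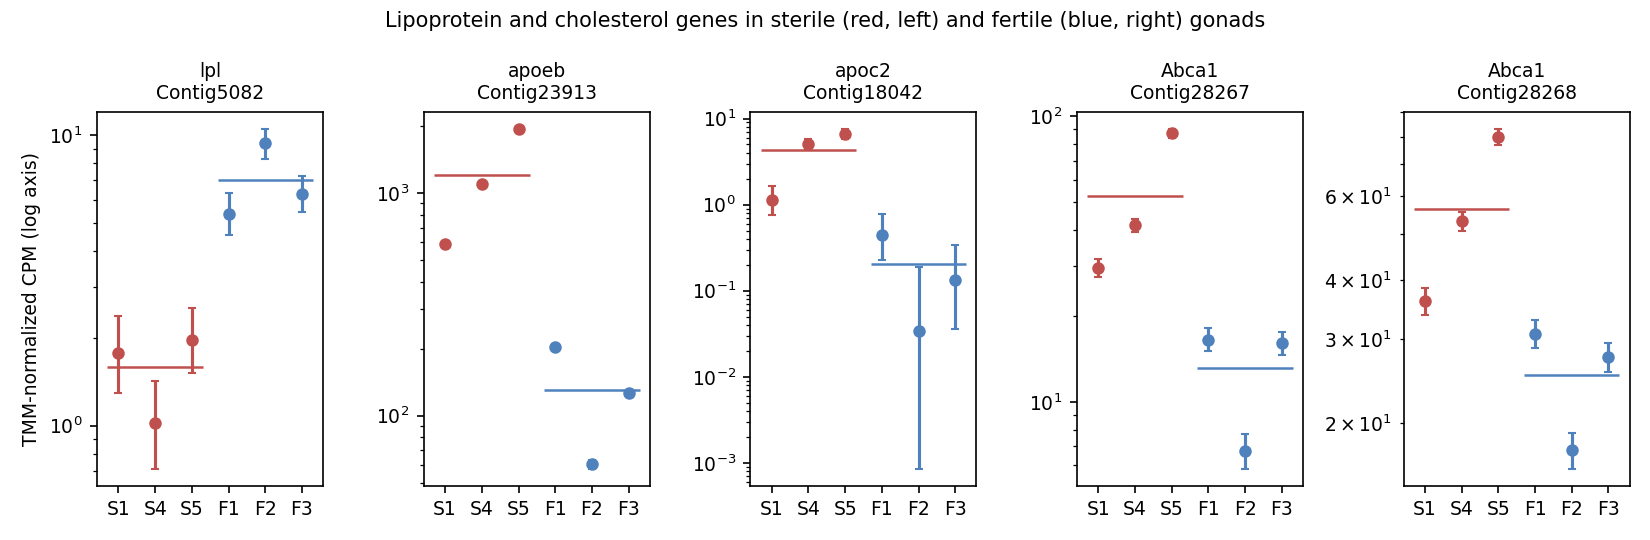
Level of each of the 5 unigenes in each library, in TMM-normalized CPM on log axes that differ between panels, with the sterile fish S1, S4 and S5 in red on the left and the fertile fish F1, F2 and F3 in blue on the right. Bars are 95% Poisson intervals of the counts and horizontal lines are group means. *lpl* lies between 1.02 and 1.98 CPM in sterile fish, below the fertile fish at 5.38 to 9.38 CPM, and the other panels run the opposite way.

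The transporter was represented by a pair of unigenes of the same symbol, whose reads may be shared or divided between them. Contig28267 was at 29.4, 41.5 and 87.3 CPM in S1, S4 and S5, against 16.5, 6.74 and 16.1 CPM in F1, F2 and F3. Contig28268 was at 36.1, 53.2 and 80.0 CPM in S1, S4 and S5, against 30.8, 17.5 and 27.5 CPM in F1, F2 and F3. S5 was the highest and F2 the lowest fish for both unigenes. The gap between groups was 1.78-fold for Contig28267 and only 1.17-fold for Contig28268, in each case between S1 and F1.

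Contig28267 averaged 52.7 ± 30.5 CPM in sterile gonads and 13.1 ± 5.52 CPM in fertile gonads (SD, n = 3 each), 4.02-fold higher, with a log2 fold change of 2.01 (SE 0.44) at number 62 from the most positive end. Contig28268 averaged 56.4 ± 22.2 CPM in sterile gonads and 25.3 ± 6.92 CPM in fertile gonads, 2.23-fold higher, with a log2 fold change of 1.16 (SE 0.29) at number 544. With S1 as the sole sterile fish the log2 fold changes were 1.16 for Contig28267 and 0.51 for Contig28268, so much of the size of both rested on S4 and S5.

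Summed over both unigenes, *Abca1* stood at 65.5, 94.6 and 167 CPM in S1, S4 and S5, against 47.3, 24.3 and 43.6 CPM in F1, F2 and F3. The summed mean was 109 ± 52.4 CPM in sterile gonads and 38.4 ± 12.4 CPM in fertile gonads, a 2.84-fold difference. The sum does not depend on how reads were divided between the pair if every read was counted once, but the treatment of reads matching both is not given. Each unigene alone was higher in all sterile fish, so the groups of the sum could not overlap, and nothing further is read from it.

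Both unigenes rose and fell together over the 6 libraries (Pearson's *r* of log2(CPM + 1) = 0.991), but not by the same factor. The libraries include the split between sterile and fertile fish by which both were selected, so nothing is read from this *r*. Other genes selected on these fish came as close, such as *cst3* to Contig28267 (0.997) and *st8sia6* to Contig28268 (0.994). Contig28267 took 44.9%, 43.8% and 52.2% of the counts of the pair in S1, S4 and S5, against 34.9%, 27.8% and 36.9% in F1, F2 and F3. All 3 sterile shares were above all 3 fertile shares, with means of 46.9% ± 4.54 in sterile and 33.2% ± 4.77 in fertile gonads (SD, n = 3 each), a difference of 13.8 percentage points. The nearest exact 95% binomial intervals, which cover counting error only, were 42.1% to 45.5% in S4 and 34.2% to 39.5% in F3.

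The lipase and the apolipoproteins were then set against each other within each fish, a ratio that does not depend on library size. There were 331, 1070 and 977 *apoeb* counts per *lpl* count in S1, S4 and S5, against 37.9, 6.45 and 20.0 in F1, F2 and F3. On the log2 scale, with 0.5 added to each count, the ratio of *lpl* to *apoeb* was −8.35, −10.04 and −9.92 in S1, S4 and S5, against −5.24, −2.69 and −4.32 in F1, F2 and F3. The group means differed by −5.36, sterile minus fertile, and the groups were 3.11 apart at their nearest. Every sterile fish was lower for *lpl* and higher for *apoeb*, so this separation follows from the levels above and is no further result.

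For *lpl* and *apoc2* the log2 ratio was 0.63, −2.29 and −1.75 in S1, S4 and S5, against 3.54, 7.53 and 5.40 in F1, F2 and F3. The group means differed by −6.63, with a gap of 2.92 between S1 and F1. This separation too was fixed by the levels of both genes. *apoc2* outnumbered *lpl* in S4 and S5 only, with 4.94 and 3.38 *apoc2* counts per *lpl* count, while S1 had 0.644. These are counts and not amounts of transcript, as they depend on the lengths of the unigenes.

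The apolipoproteins kept closer to each other. The log2 ratio of *apoeb* to *apoc2* was 8.98, 7.75 and 8.17 in S1, S4 and S5, against 8.78, 10.22 and 9.71 in F1, F2 and F3. Here the groups overlapped, as S1 was above F1.

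**Figure D2:**
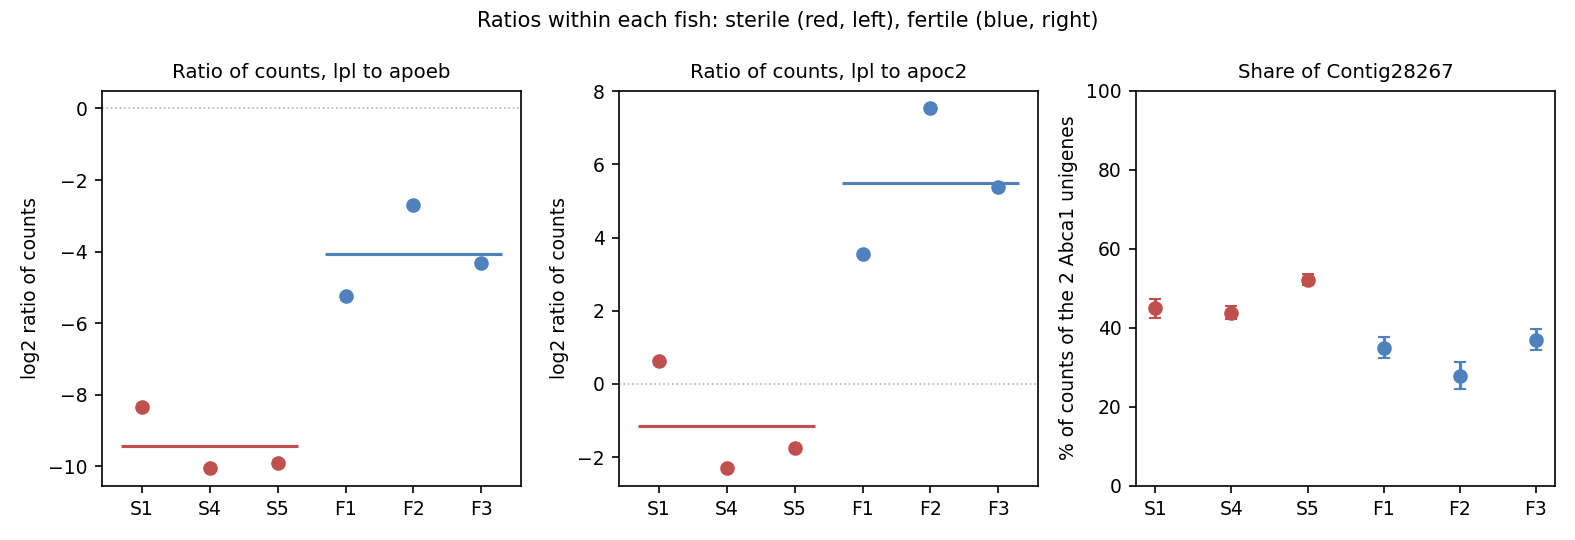
Ratios within each library for the sterile fish (red, left) and the fertile fish (blue, right). The left and middle panels show the log2 ratio of counts of *lpl* to *apoeb* and of *lpl* to *apoc2*, with lines at the group means, which differ by −5.36 and −6.63. The right panel shows the percent of the counts of both *Abca1* unigenes that fell on Contig28267, with exact 95% binomial intervals, at 43.8% to 52.2% in sterile and 27.8% to 36.9% in fertile fish.

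The order of the fish within each group was shared by 4 of the 5 members. *apoeb*, *apoc2* and both *Abca1* unigenes were highest in S5, then S4, then S1 among the sterile fish, and highest in F1, then F3, then F2 among the fertile fish. *lpl* ran in the opposite order among the fertile fish, with F2 highest and F1 lowest. Among the sterile fish it did not, since S5 was highest for *lpl* as well and S4 was lowest. With 3 fish in a group these orders are a description only.

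Other genes of lipid transport and metabolism were taken as a list of 11 symbols with 20 unigenes from the study's selections on these fish, so their direction is not independent evidence. The filter was passed by 13 of the 20 unigenes. Of the 13, 0 were called by edgeR's quasi-likelihood test, 5 by DESeq2 and 0 by limma-voom. Over all 35787 tested unigenes these methods called 49, 299 and 24. All 13 had an unadjusted *p* under 0.05, which their selection by significance on these fish had fixed, so nothing is read from it. The log2 fold change was positive for 11 and negative for 2, with a median of 1.51 against 0.01 over all tested unigenes.

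Angiopoietin-like 4, encoded by *Angptl4*, inhibits lipoprotein lipase in mammals. Its unigenes Contig10868 and Contig26095 summed to 14.6, 30.8 and 44.2 CPM in S1, S4 and S5, against 12.7, 4.68 and 11.7 CPM in F1, F2 and F3. The mean sum was 29.9 ± 14.8 CPM in sterile gonads and 9.68 ± 4.37 CPM in fertile gonads. Their log2 fold changes were 1.40 and 2.04, and the order of the fish was S5, S4, S1 and F1, F3, F2, as for the apolipoproteins.

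The endocytic receptor megalin, which takes up lipoproteins and other ligands, is encoded by *lrp2a*. It was represented by 8 unigenes, which may be fragments of fewer transcripts, and their sum was 9.17, 9.46 and 19.4 CPM in S1, S4 and S5, against 5.19, 3.49 and 5.36 CPM in F1, F2 and F3. The 7 tested *lrp2a* unigenes had log2 fold changes of 1.18 to 2.07. S5 stood well above S1 and S4, which were alike.

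*plin2*, whose protein coats lipid droplets, was at 5.02, 9.51 and 12.3 CPM in S1, S4 and S5, against 3.71, 2.0 and 4.86 CPM in F1, F2 and F3, with a log2 fold change of 1.35. S1 and F3 were nearly equal. The fatty acid elongase *elovl1b* had a log2 fold change of 1.38, at 0.870 to 1.88 CPM in sterile and 0.271 to 0.733 CPM in fertile gonads.

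Of the tested unigenes, those of *abcd2* and *pla2g4a* had negative log2 fold changes. *abcd2*, which encodes a peroxisomal fatty acid transporter, was at 0.395, 0.409 and 0.422 CPM in S1, S4 and S5 for its tested unigene Contig7239, against 2.3, 3.96 and 1.10 CPM in F1, F2 and F3, a log2 fold change of −2.57. The sterile fish were nearly equal and below every fertile fish, and F2, the fish with the highest *lpl*, was also highest for *abcd2*. The phospholipase *pla2g4a* had a log2 fold change of −1.66. Neither was called by edgeR's quasi-likelihood test, and *abcd2* was among the 5 unigenes called by DESeq2, with 4 unigenes of *lrp2a*.

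The other 7 unigenes were too sparse for the test. *apoc1l*, matched to apolipoprotein C-I, had 3, 17 and 10 counts in S1, S4 and S5, against 3, 1 and 0 in F1, F2 and F3. *Apod*, a carrier of small lipophilic molecules, had 0, 0 and 6 counts in S1, S4 and S5, against 6, 10 and 16 in F1, F2 and F3, so both apolipoproteins had S1 or S5 level with a fertile fish. The efflux transporter *abcg2a* had no count in any sterile library, against 6, 20 and 0 counts in F1, F2 and F3. The fatty acid carrier *slc27a2b* had 5 to 11 counts in sterile and 1 to 2 in fertile libraries, and the peroxisomal transporter *abcd3a* had 0 to 1 in sterile and 2 to 11 in fertile libraries.

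**Figure D3:**
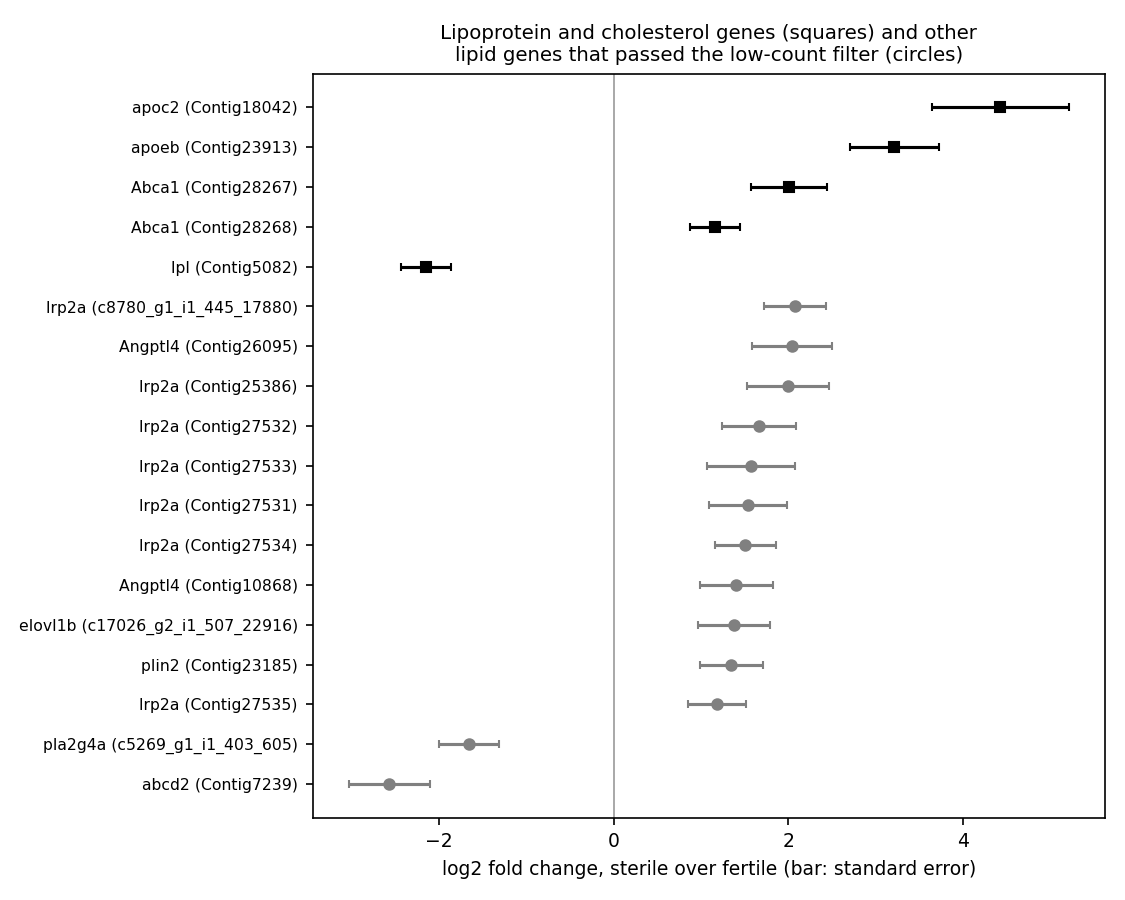
Log2 fold change, sterile over fertile, for the 5 unigenes described here (black squares, upper block) and the 13 other lipid unigenes that passed the low-count filter (grey circles, lower block). Bars are standard errors derived from the F statistic of the test, and the vertical line marks no difference. The squares run from −2.15 for *lpl* to 4.42 for *apoc2*, and the circles lie at 1.18 to 2.07 for 11 unigenes and at −2.57 and −1.66 for 2.

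Markers of other cells are given as a description. The leukocyte, liver-enriched, exocrine pancreas and ovary unigenes below were all taken from the study's list of differentially expressed unigenes. A difference between the groups was therefore fixed by their selection. Their sums and directions are not independent evidence of a change in cell content. The 17 leukocyte unigenes, among them *csf1ra*, *spi1b* and the complement genes *c1qa*, *c1qb* and *c1qc* of macrophages, summed to 53.6 to 107 CPM in sterile and 30.5 to 38.0 CPM in fertile gonads, a 2.28-fold difference of the means. Of the 15 tested, 12 had a positive log2 fold change and 3 a negative one, all 3 matched to the granulocyte peroxidase *mpx*. The granulocyte receptor *csf3r* ran the other way, though too sparse for the test. One of its unigenes had 7, 9 and 15 counts in S1, S4 and S5, against 4, 1 and 3 in F1, F2 and F3. Another had 5, 9 and 10 counts, against 3, 1 and 1. No leukocyte unigene was at 0 in a whole group. Macrophages make apolipoprotein E and export cholesterol through Abca1, and the part of leukocytes in these results was not tested.

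Divided by the leukocyte sum of the same fish, *apoeb* was 8.28, 20.4 and 18.0 in S1, S4 and S5, against 6.11, 1.99 and 3.31 in F1, F2 and F3. The means of this quotient differed 4.09-fold, against 9.26-fold for the level itself, and the groups did not overlap. For *lpl* the quotient was 10.2-fold higher in fertile than in sterile gonads, against 4.41-fold for the level. For *apoc2* it differed 9.61-fold, against 21.0-fold for the level, with S1 at 0.0161 and F1 at 0.0133. The leukocyte unigenes of the divisor were themselves selected on this contrast. Their higher sum in sterile gonads lowers the fold for every member higher there and raises it for *lpl*. The divisor also holds the 3 *mpx* unigenes, which run the other way. In F2 they were at 3.42, 6.17 and 3.25 CPM, against 0.162 to 0.514 CPM in the sterile fish. They add more to the divisor of the fertile fish, and quotients without them were not computed. These quotients are descriptions and do not test where the transcripts came from.

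The quotient of Contig28267 was 1.75-fold higher in sterile gonads, against 4.02-fold for the level, with S1 at 0.413 inside the fertile range of 0.221 to 0.496. That of Contig28268 differed by a factor of 1.01, against 2.23 for the level, with all fertile fish inside the sterile range. The *mpx* unigenes are part of this divisor too, so these factors depend on the mix of genes summed. In S5, *c1qa*, *c1qb* and *c1qc* were at 23.3, 31.4 and 22.3 CPM of a divisor of 107 CPM. In F2 they were at 3.22, 5.35 and 3.52 CPM of 30.5 CPM.

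The 6 liver-enriched unigenes summed to 192 to 450 CPM in sterile and 104 to 113 CPM in fertile gonads. Of these, 4 were tested, 3 with a positive log2 fold change and 1, *cpn1*, with a negative one (−1.50). *cpn1* had 116, 116 and 168 counts in S1, S4 and S5, against 267, 574 and 253 in F1, F2 and F3. The liver is a main source of plasma apolipoproteins. Most of this sum came from *sepp1a*, the gene of a secreted selenium carrier, and *bhmt*, an enzyme of methionine synthesis abundant in liver, had only 17, 26 and 24 counts in S1, S4 and S5, against 3, 8 and 8 in F1, F2 and F3. Neither was at 0, and the part of liver RNA was not tested.

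The 9 exocrine pancreas unigenes, for digestive enzymes, summed to 3.28, 25.5 and 25.8 CPM in S1, S4 and S5, against 2.11, 0.779 and 0.999 CPM in F1, F2 and F3. Of these, 3 were tested and all had positive log2 fold changes, and 1 unigene of *Ctrb1*, a chymotrypsinogen, was at 0 in all fertile libraries and in S1. S4 and S5 stood apart from S1 here, as they did for *apoc2*, and the part of pancreatic RNA was not tested. The 4 ovary unigenes summed to 6.71 to 12.7 CPM in sterile and 14.6 to 29.0 CPM in fertile gonads, with F2 highest, as for *lpl*. The log2 fold change was below 0 for all 4 (median −1.36), and the part of these cells in the *lpl* result was not tested.

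**Figure D4:**
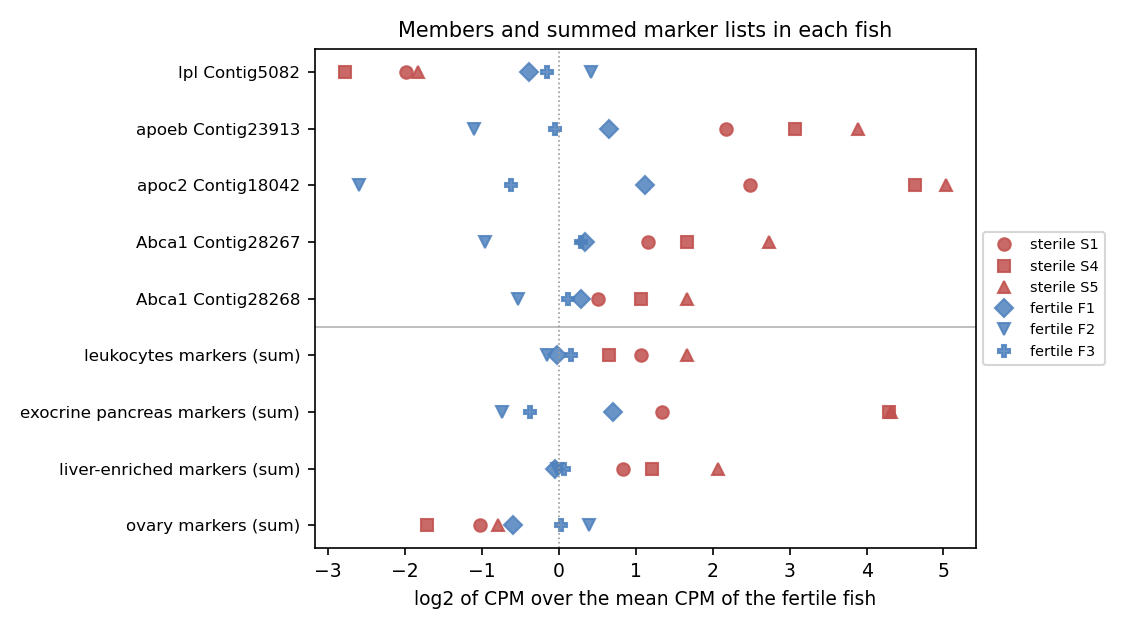
Level of each of the 5 unigenes (upper rows) and summed level of 4 marker lists (lower rows) in each library, as the log2 of CPM over the mean CPM of the 3 fertile fish. Sterile fish are red and fertile fish blue, with a symbol for each fish. *lpl* and the ovary sum lie to the left in sterile fish, while the pancreas sum of S1, at 3.28 CPM, lies far from those of S4 and S5, at 25.5 and 25.8 CPM.

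The 459 named unigenes that passed the filter, all selected by the study on these fish, were ordered by how closely they followed each member over the 6 libraries, as Pearson's *r* of log2(CPM + 1). The points are the same 6 libraries throughout, and they include the split between sterile and fertile fish by which all these unigenes were selected. Closest to *lpl* were *nid1a* (*r* = 0.995), which encodes the basement membrane protein nidogen, *si:ch73-217n20.1* (0.995) and *jam2b* (0.993), which encodes a junctional adhesion molecule.

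Closest to *apoeb* were *zgc:91968* (*r* = 0.992), the elastase *ela2* (0.992) and *epdl1* (0.989), which encodes an ependymin-like secreted protein. Closest to *apoc2* were the membrane peptidases *enpep* (0.988) and *ace* (0.987), and *LOC568954* (0.985). Like *apoc2*, *enpep* was low in S1, at 0.791 CPM, and high in S4 and S5, at 3.65 and 5.45 CPM, against 0.779, 0.0678 and 0.133 CPM in F1, F2 and F3.

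Closest to Contig28267 were *LOC570839* (*r* = 0.998), *cst3* (0.997), which encodes the protease inhibitor cystatin C, and the small GTPase *arl4ab* (0.996). Closest to Contig28268 were the sialyltransferase *st8sia6* (0.994), the phosphatase *dusp22b* (0.993) and the *Angptl4* unigene Contig26095 (0.993). *cst3* was at 541, 715 and 1456 CPM in S1, S4 and S5, against 350, 196 and 350 CPM in F1, F2 and F3.

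In the RefSeq gene order of this species, *apoc2* and *apoeb* lie on chromosome 13 with 3 genes between them, *apoa2*, *apoc4* and *apoc1*, all apolipoprotein genes by symbol. These genes were linked to the unigenes by symbol and not by sequence, since none of the unigene identifiers is in the RefSeq table.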

How the data were processed

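Raw counts per unigene were deposited by the authors, who cleaned the reads, ran Trinity on each library, clustered the contigs with CAP3 and took names from tBlastx. BWA 0.7.8-r455 and HTSeq appear in the submitters' processing notes, and the study names Picard for counting. Strand use and the treatment of multiply matching reads are not given in the sources used here. From the study's own comparisons only symbols and list membership were taken, no values. A further lipid gene is not reported here.

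The quasi-likelihood test of edgeR 4.0.16 in R 4.3.3 was fitted to the counts (TMM, default filterByExpr), with Benjamini-Hochberg adjustment over 35787 of 52474 unigenes. CPM are counts over the TMM-scaled library size. Each SE of a log2 fold change was derived from the test, as its size over the square root of the F statistic. Library totals were 25024469 to 35719683 counts. Libraries of a group were taken as separate fish, as the study describes them.

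The members and all lists were chosen with earlier results of these data known. The genes named are the members, the lipid list, markers from 4 lists and, per member, the 3 named unigenes with the highest correlation. Alternatives were no filter, a minimum of 10 counts per library, RLE, DESeq2 1.42.0, limma-voom (limma 3.58.1), a prior count of 2, same-symbol sums, each fish left out, 1 in place of 0.5 as the added count, ratios of mean CPM and pooled shares. S1 as the sole sterile fish was chosen after seeing the data. Sequences were not used here.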

Additional observations from a re-analysis of the deposited data

How the results depend on the processing

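No member changed direction under any alternative. The number of unigenes called was 49, and it was 79 without the low-count filter, 299 with DESeq2, 24 with limma-voom, 25 with same-symbol unigenes summed and 34 to 97 with 1 fish left out, 97 without F1 and 89 without S5. The number of members called was 1, and it was 2 without the filter, 4 with DESeq2, 0 with limma-voom, 0 with S1 as the sole sterile fish and 0 to 2 with 1 fish left out, 0 without F2 or S4 and 2 without F1. Without S1 it was 1, *apoc2* in place of *lpl*. Of the lipid list, 0 unigenes were called, 5 with DESeq2 and 0 to 1 with 1 fish left out, 1 without F3.

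With 1 fish left out, the log2 fold change ran from −2.36 to −1.88 for *lpl*, 2.68 to 3.69 for *apoeb*, 3.92 to 5.62 for *apoc2*, 1.43 to 2.29 for Contig28267 and 0.82 to 1.39 for Contig28268. The highest value for *apoc2* was that without F1. With S1 as the sole sterile fish, assumed to vary like the fertile fish, it was 2.18 for *apoeb*, 2.50 for *apoc2*, 1.16 for Contig28267 and 0.51 for Contig28268. Of 69 member fold changes under alternatives, 64 moved by less than the spread between replicates. This spread was the SD of log2(CPM + 1) within groups, pooled over both. The added 1 narrows it for the sparse *apoc2*, to 0.71, so it is not on the scale of the fitted fold changes. The summed *Abca1* fold change of 1.51 was counted under each of its unigenes. The differences of the log2 ratios stayed between −5.94 and −4.27 for *lpl* to *apoeb* and between −7.60 and −4.86 for *lpl* to *apoc2*, and that of the *Abca1* share between 11.1 and 15.6 percentage points.

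*apoc2* has no value with at least 10 counts in every library. No paired analysis was possible because the study describes separate fish and names no pairs of a sterile and a fertile fish. The replicate number is therefore no block, and a fit with it as a block was not run. With 3 fish in a group, a single fish decides a call. The causes of these changes were not tested.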
